A study of Gallus gallus with 6 samples.

Results

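The 10 genes described here modify, fold or cross-link collagen, and their transcripts were compared in breast muscle of broiler chickens given vitamin E and of control chickens. They were the rows of the deposited expression table whose name was LOX, LOXL1, LOXL2, LOXL3, LOXL4, PLOD1, PLOD2, P4HA1, P4HA2 or SERPINH1, and all 10 names were present among 20943 genes. The birds were female and 35 days old, and the tissue was the pectoral muscle (pectoralis major). Birds of the vitamin E group ate a basal diet with 100 IU/kg of DL-α-tocopheryl acetate, an ester of the lipid-soluble antioxidant α-tocopherol, and control birds ate the basal diet with 0 IU/kg. Each group had 3 libraries of poly(A)-selected RNA. The labels do not say whether the 3 tissue samples of a group came from separate birds or pens, so the p-values reflect only how these samples varied, which may be technical.

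Collagen chains are modified in the endoplasmic reticulum before they fold into a triple helix. Prolyl 4-hydroxylases make the hydroxyproline that keeps the helix stable, lysyl hydroxylases make the hydroxylysine that carries sugars and shapes cross-links, and the chaperone HSP47 holds the folded helix until it leaves for the Golgi. Both kinds of hydroxylase need iron, oxygen, 2-oxoglutarate and vitamin C. Outside the cell, copper-dependent lysyl oxidases turn lysine and hydroxylysine side chains of collagen and elastin into aldehydes, which then react into the covalent cross-links that give fibres their strength. In muscle these fibres form the connective tissue sheaths around fibres and bundles, and their cross-links are known to contribute to the toughness of meat.

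The domain annotation in the deposited table matched these roles, though it may share a source with the gene names and is no separate check. It gave a lysyl oxidase domain to LOX and the 4 LOXL genes, an iron-dependent oxygenase domain (2OG-FeII_Oxy) to PLOD1 and PLOD2, the N-terminal domain of the prolyl 4-hydroxylase alpha subunit to P4HA1 and P4HA2, and a serpin domain to SERPINH1. LOX lay on chromosome Z, from 80980936 to 80988177 on the minus strand. LOXL1 lay on chromosome 10, from 2256337 to 2265243 on the plus strand. P4HA1 lay on chromosome 6, from 11185397 to 11213752 on the plus strand, and PLOD2 on chromosome 9, from 11508277 to 11558488 on the minus strand. The deposited table gives these positions, and no source used here names its genome build. They span whole genes, introns included. LOXL3 lay on a sequence record with 11 symbols of known chromosome, 100.0% of them on the same one. This number was held too small to name a chromosome.

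Expression is given in FPKM, the authors' read level relative to gene length and library size. The FPKM steps showed between 14161399 and 25477341 reads per library, with the largest number in control replicate 1. That library also stood apart on the first principal component, at 34.4, where the other 5 lay between -17.4 and 14.2. The labelled tissue was checked with fibre markers, of which 8 of 10 were found. The 8 markers summed to between 65055 and 73207 FPKM with vitamin E and between 70469 and 84109.8 FPKM in controls. Differences were tested with limma on log2(FPKM + 1) over the 11320 genes averaging 1 FPKM or more, with Benjamini-Hochberg adjustment over all of them. A log2 difference on this scale understates the change of low genes.

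LOX, LOXL1 and LOXL3 were the enzyme genes with higher levels in every vitamin E library than in any control library, and P4HA1 was the one with lower levels. LOX averaged 19.6 ± 1.92 FPKM with vitamin E and 11.0 ± 2.08 FPKM in controls (SD, n = 3 each), and LOXL1 averaged 11.7 ± 2.03 FPKM with vitamin E and 5.93 ± 1.57 FPKM in controls. In bulk tissue, a different number of cells of a type and a different amount of RNA per cell cannot be told apart. No gene of the set passed the test. Over all genes limma called 0 (0%) at an adjusted p of 0.05, while 676 genes (5.97%) were higher and 355 (3.14%) lower with vitamin E when the unadjusted p was held to 0.05. Voom on the recovered reads called 2 genes, CD36 and KCTD20, neither of them in the set. LOXL4 averaged 0.105 FPKM in each group and was too low to be tested. Of the 9 tested enzyme genes, 3 were higher at an unadjusted p under 0.05 and 0 were lower. The groups did not overlap in 3 enzyme genes that were higher, where 8.86% of all tested genes were, and in 1 that was lower, where 5.72% were. The median log2 difference of the 9 genes was 0.065, against 0.019 over all tested genes. Without control replicate 1, the library farthest out on the first principal component, 4 enzyme genes were higher at an unadjusted p under 0.05. Of all tested genes, 5.47% were, and the median of the enzyme genes was 0.24. The groups, then 3 against 2 libraries, did not overlap in 5 enzyme genes that were higher and in 1 that was lower, where 14.9% and 8.98% of all tested genes did not. The count of higher enzyme genes at an unadjusted p under 0.05 was 2 when vitamin E replicate 2 or 3 or control replicate 2 or 3 was left out. Of all tested genes, 3.90%, 6.23%, 8.32% and 3.90% were higher in these settings, in that order. The median of the enzyme genes was -0.053 without control replicate 2 and -0.11 without control replicate 3.

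**Figure D1:**
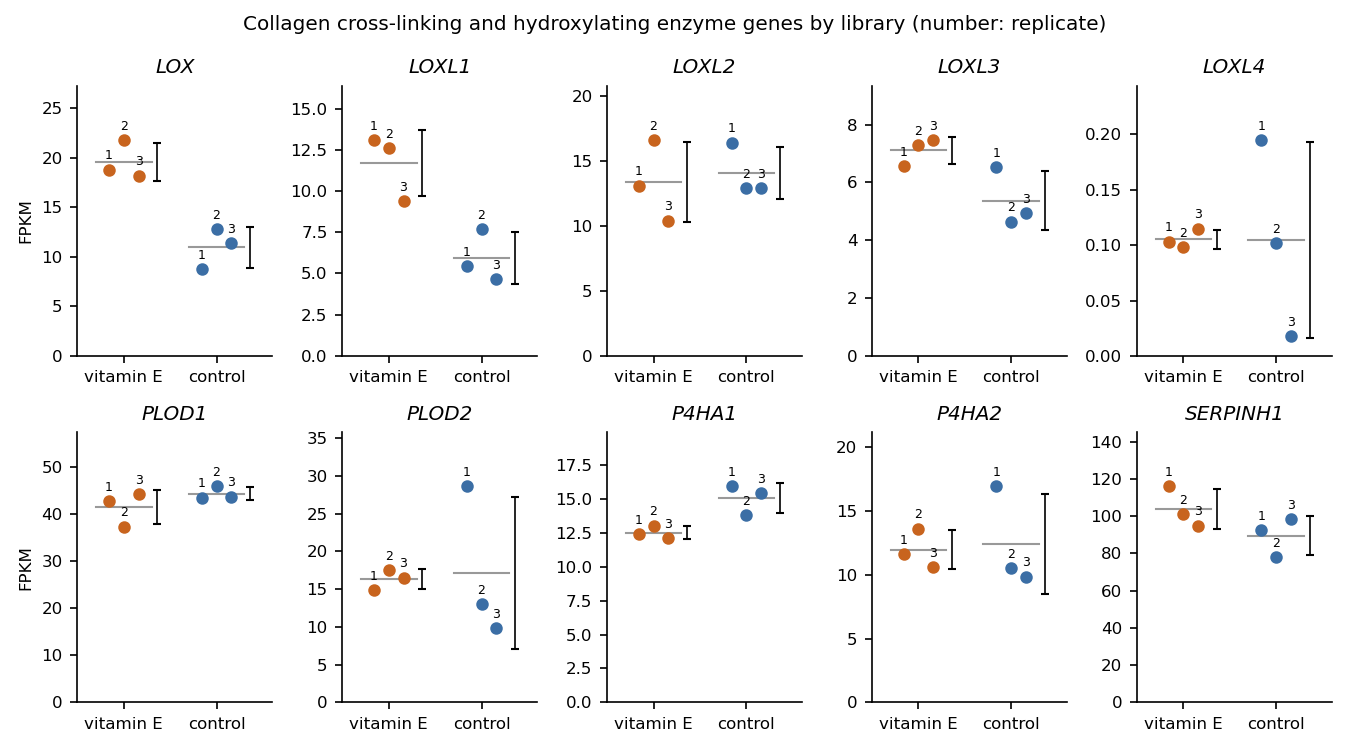
Expression of each enzyme gene in FPKM on a linear axis from 0, with vitamin E libraries at the left and control libraries at the right of each panel. Points are libraries numbered by replicate, the horizontal line is the group mean and the bar beside it is ± 1 SD. LOX lies between 18.2 and 21.8 FPKM with vitamin E and between 8.73 and 12.8 FPKM in controls, while PLOD2 and P4HA2 are highest in control replicate 1.

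Among the lysyl oxidases, LOX, the founding member of the family and the main oxidase of fibrillar collagen and elastin, stood at 18.8, 21.8 and 18.2 FPKM in the vitamin E libraries, against 8.73, 12.8 and 11.4 FPKM in the control libraries. The lowest vitamin E library was thus well above the highest control, and control replicate 1 was the lowest of all. The log2 difference was 0.80 ± 0.16 (SE, 95% interval 0.43 to 1.17), with an unadjusted p of 0.00132 and an adjusted p of 0.279 in limma. This p was the 51st smallest of all tested genes. Without each library in turn the log2 difference of LOX lay between 0.65 and 0.91, the unadjusted p between 0.00103 and 0.00683 and the adjusted p between 0.132 and 0.747. The smallest of these differences came without control replicate 1, where the unadjusted p was 0.00237. Between 233 and 409 reads stood behind each LOX value, a counting error of 4.94% to 6.55%, and the libraries of a group varied by 9.80% (vitamin E) and 19.0% (control).

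LOXL1, an oxidase tied to elastic fibres in mice, had 13.1, 12.6 and 9.38 FPKM with vitamin E and 5.44, 7.68 and 4.66 FPKM in controls. The groups did not overlap, with vitamin E replicate 3 nearest to the controls and control replicate 2 nearest to the vitamin E libraries. Its log2 difference of 0.89 ± 0.20 (SE, 95% interval 0.43 to 1.35) was the largest of the enzyme genes, with an unadjusted p of 0.00249 and an adjusted p of 0.300 in limma. It ranged from 0.75 to 1.06 without single libraries. Each value rested on 174 to 430 reads. The best nucleotide match that the table gives for LOXL1 is a partial transcript, so its level per length relative to the other genes is less certain than its difference between groups.

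LOXL3, a lysyl oxidase with scavenger receptor domains that mice need for palate and spine development, had 6.56, 7.29 and 7.47 FPKM with vitamin E, against 6.53, 4.64 and 4.93 FPKM in controls. Vitamin E replicate 1 and control replicate 1 were almost equal, so the separation of the groups rested on a difference in the second decimal, and after TMM-type or median-of-ratios scaling the groups overlapped. The log2 difference was 0.36 ± 0.14 (SE), with an unadjusted p of 0.0372 and an adjusted p of 0.522 in limma. Leaving out vitamin E replicate 2 or 3 gave an unadjusted p of 0.0927 or 0.102, and leaving out control replicate 2 or 3 gave 0.115 or 0.101. It was 0.0693 with the replicate number as a block, 0.0533 with the description digit as a block and 0.00598 without control replicate 1, where the log2 difference was 0.49.

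LOXL2, which also carries scavenger receptor domains and is known for cross-linking basement membrane collagen IV, showed no such separation. It had 13.1, 16.6 and 10.4 FPKM with vitamin E and 16.4, 12.9 and 12.9 FPKM in controls. The vitamin E libraries surrounded the controls, and the log2 difference was -0.083 with a 95% interval of -0.51 to 0.34 (adjusted p = 0.922 in limma). It turned to 0.023 without control replicate 1 and to 0.07 without vitamin E replicate 3. LOXL4, the remaining family member, was close to 0 in every library. It rested on 5, 5 and 6 reads with vitamin E and on 17, 6 and 1 reads in controls, and a difference was not detectable at this depth.

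Because the 5 genes encode enzymes with the same catalytic domain, their levels were also added per library. This sum, and the other sums and ratios below, were chosen after the values were seen and are given without a test. The lysyl oxidase genes summed to 51.7, 58.4 and 45.6 FPKM with vitamin E and to 37.3, 38.2 and 33.9 FPKM in controls. LOX supplied 36.4%, 37.4% and 39.9% of the sum with vitamin E, against 23.4%, 33.7% and 33.5% in controls. LOXL2 supplied 25.3%, 28.4% and 22.9% with vitamin E, against 43.9%, 33.8% and 38.2% in controls. LOXL2 was thus the most abundant oxidase transcript in all 3 control libraries, in control replicate 2 only just ahead of LOX. LOX was the most abundant in all 3 vitamin E libraries. This order is per length and rests on implied lengths of 1263 bases for LOX and 3811 bases for LOXL2. In reads, LOX was below LOXL2 in every library. LOX and LOXL1 together made up 60.4 ± 1.42% of the sum with vitamin E and 46.4 ± 7.91% in controls (SD, n = 3 each). The sum was itself higher in every vitamin E library, so a gene of unchanged level falls as a share. In FPKM itself LOXL2 averaged 13.4 with vitamin E and 14.1 in controls, with overlap.

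**Figure D2:**
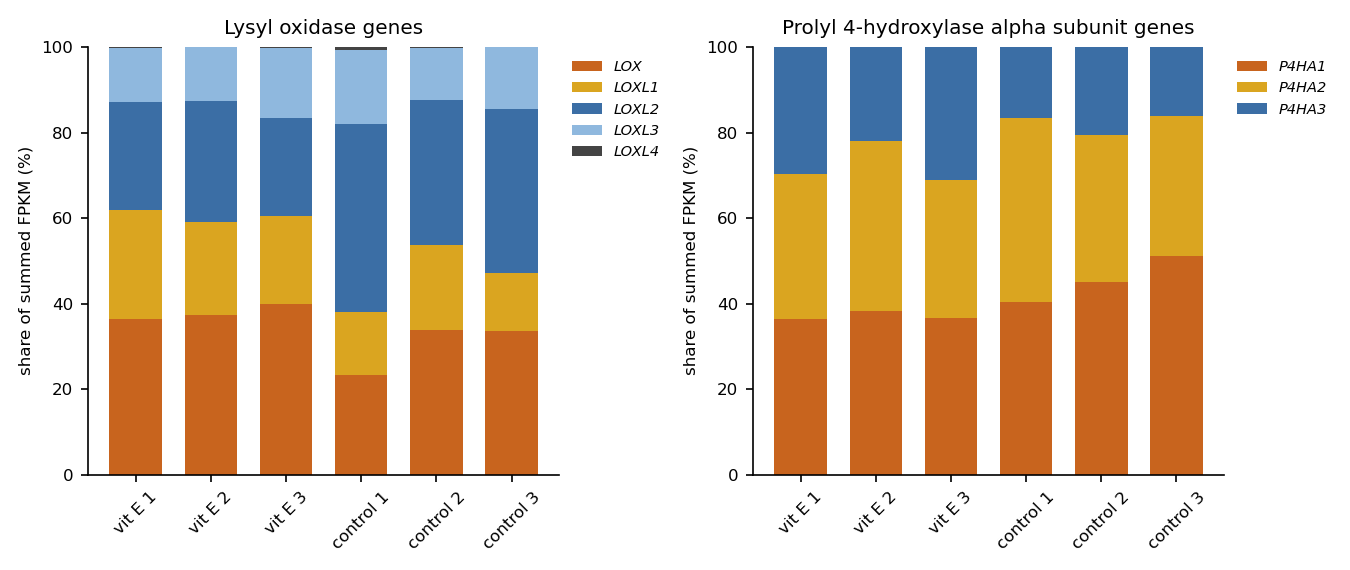
Share of summed FPKM in percent for each library, vitamin E libraries first, for the 5 lysyl oxidase genes (left) and the 3 genes of the prolyl 4-hydroxylase alpha subunit (right). LOX and LOXL1 together take between 59.0% and 61.8% with vitamin E and between 38.0% and 53.8% in controls, and P4HA3 takes between 21.9% and 31.1% with vitamin E and between 16.2% and 20.6% in controls.

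The prolyl 4-hydroxylase is a tetramer of alpha subunits, which hold the active site, and of the disulphide isomerase encoded by P4HB. P4HA1, the main alpha subunit in most mammalian cells, had 12.4, 13.0 and 12.1 FPKM with vitamin E and 15.9, 13.8 and 15.4 FPKM in controls. Every vitamin E library lay below every control library, control replicate 2 being the nearest. The log2 difference was -0.25 ± 0.11 (SE, 95% interval -0.50 to 0.0063), with an unadjusted p of 0.0546 and an adjusted p of 0.558 in limma. The unadjusted p moved to either side of 0.05 with the processing, between 0.0342 with no filter on low values and 0.138 without vitamin E replicate 3, and it was 0.110 with the replicate block. Each P4HA1 value rested on 944 to 2182 reads.

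P4HA2, the second alpha subunit, had 11.6, 13.6 and 10.6 FPKM with vitamin E, against 16.9, 10.5 and 9.83 FPKM in controls. Control replicate 1 was the highest and the other 2 controls were the lowest libraries. The log2 difference was -0.022 (95% interval -0.51 to 0.47), and it was 0.21 without control replicate 1. P4HA3, the third alpha subunit and no member of the set, had 10.1, 7.45 and 10.3 FPKM with vitamin E and 6.55, 6.29 and 4.87 FPKM in controls, with no overlap and a log2 difference of 0.57 ± 0.16 (SE, unadjusted p = 0.00926, adjusted p = 0.387 in limma). The 3 alpha subunit genes summed to 33.7 ± 0.664 FPKM with vitamin E and 33.4 ± 5.23 FPKM in controls (SD, n = 3 each). P4HA1 supplied 37.0 ± 1.01% of that sum with vitamin E and 45.5 ± 5.40% in controls, while P4HA3 supplied 27.6 ± 4.99% with vitamin E and 17.8 ± 2.42% in controls. P4HB, the partner subunit, averaged 78.9 ± 2.21 FPKM with vitamin E and 78.2 ± 24.0 FPKM in controls (log2 difference 0.053), and control replicate 1 was again its highest library at 105 FPKM.

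PLOD1, the lysyl hydroxylase of the collagen helix, varied least of the set among the control libraries. It had 42.7, 37.3 and 44.1 FPKM with vitamin E and 43.4, 45.8 and 43.6 FPKM in controls. The groups overlapped, and the log2 difference was -0.099 with a 95% interval of -0.36 to 0.17 (adjusted p = 0.827 in limma). At 2152 to 4303 reads per library the counting error of PLOD1 was 1.52% to 2.16%.

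PLOD2, the hydroxylase of the telopeptides at the ends of collagen, varied most among the control libraries of the 9 tested genes. It had 14.9, 17.5 and 16.5 FPKM with vitamin E and 28.6, 13.0 and 9.82 FPKM in controls. Control replicate 1 had the highest value and the other 2 control libraries had the lowest, so that the control group surrounded the vitamin E group. The log2 difference of 0.065 ± 0.34 (SE) had a 95% interval of -0.73 to 0.86. Without control replicate 1 it was 0.49 with an unadjusted p of 0.0181 and an adjusted p of 0.521 in limma, and without control replicate 3 it was -0.24.

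SERPINH1 encodes HSP47, the collagen-specific chaperone, and had the highest level of the set. It had 116, 101 and 94.9 FPKM with vitamin E and 92.4, 78.1 and 98.3 FPKM in controls. Vitamin E replicate 3 lay below control replicate 3, and the log2 difference was 0.22 with a 95% interval of -0.11 to 0.54 (adjusted p = 0.680 in limma). The groups did not overlap once vitamin E replicate 3 or control replicate 3 was left out. In the order of levels per length, SERPINH1 (mean of 96.9 FPKM over all libraries) stood above PLOD1 (42.8 FPKM), and PLOD1 above PLOD2 (16.7 FPKM), in 6 of 6 libraries. PLOD2, LOX, P4HA1, LOXL2 and P4HA2 had means between 12.2 and 16.7 FPKM, and no neighbours among them kept their order in all 6 libraries. LOX stood above P4HA1 in 3 of 3 vitamin E libraries and in 0 of 3 control libraries. LOXL1 (8.81 FPKM) followed, below P4HA2 in 5 of 6 libraries and above LOXL3 (6.24 FPKM) in 4 of 6.

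**Figure D3:**
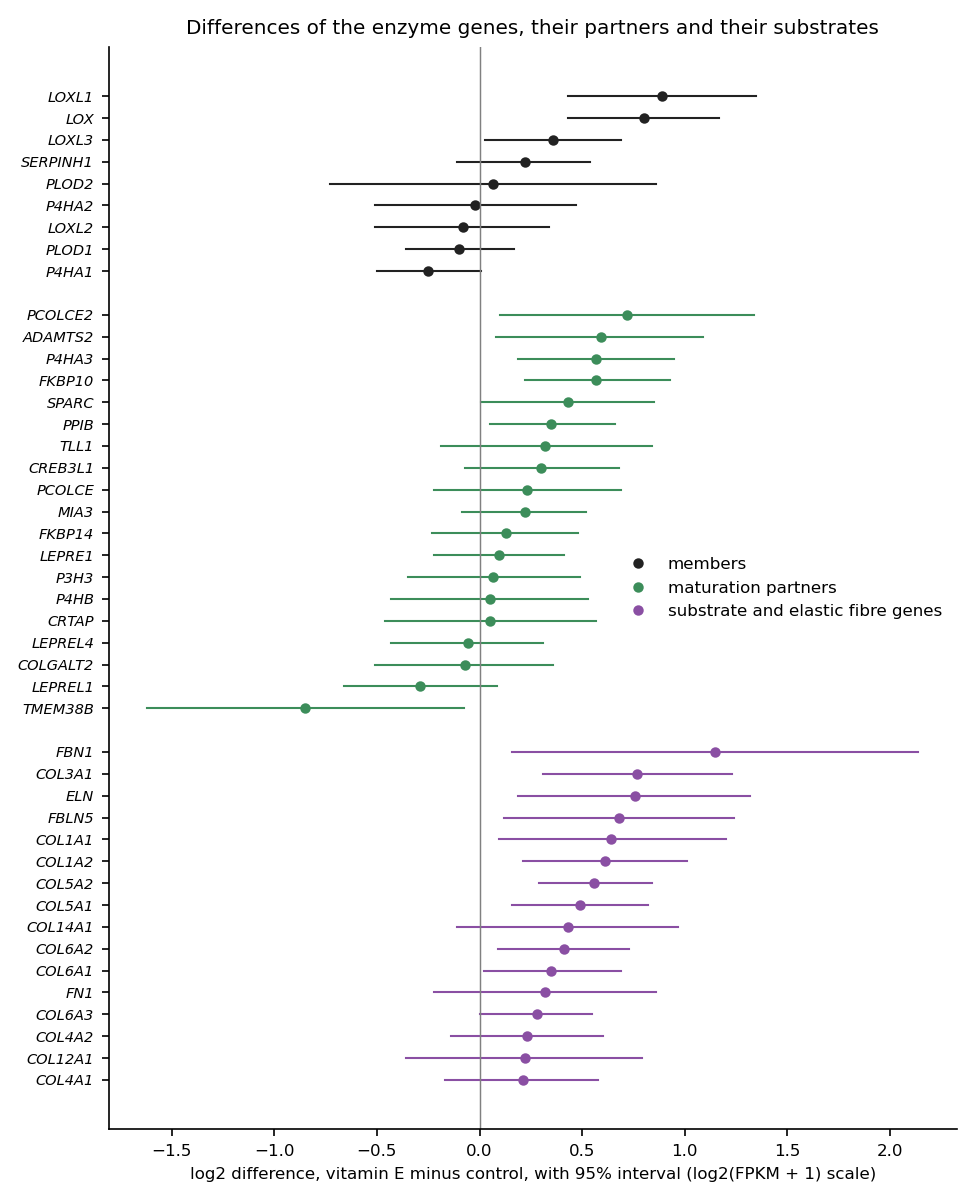
Log2 difference of FPKM + 1, vitamin E minus control, for the 9 tested enzyme genes, 19 genes of collagen maturation and 16 substrate and elastic fibre genes, with points for the estimate and lines for the 95% interval of limma. LOX and LOXL1, at 0.80 and 0.89, have intervals above 0, whereas the intervals of 6 of the other 7 enzyme genes hold 0.

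Of the other genes of collagen maturation, 31 names were listed, older symbols included, 22 were found and 19 were tested. At an unadjusted p under 0.05, 6 were higher and 1 was lower with vitamin E, where 5.97% and 3.14% of all tested genes were. Of the 19, 0 passed the adjusted test in limma. Their median log2 difference was 0.22. FKBP10, a prolyl isomerase of the endoplasmic reticulum that acts with lysyl hydroxylase 2, averaged 14.6 ± 2.73 FPKM with vitamin E and 9.39 ± 0.895 FPKM in controls (log2 difference 0.57, adjusted p = 0.360). PPIB, the isomerase cyclophilin B, averaged 94.1 ± 8.25 FPKM with vitamin E and 73.5 ± 7.64 FPKM in controls, and the groups of both isomerase genes did not overlap. PCOLCE2, an enhancer of procollagen C-proteinase, averaged 17.9 ± 4.67 FPKM with vitamin E and 10.6 ± 3.76 FPKM in controls, with overlap. The lower gene, named because it was alone in that direction, was TMEM38B, a cation channel of the endoplasmic reticulum. It averaged 23.1 ± 6.23 FPKM with vitamin E and 44.2 ± 19.4 FPKM in controls, with overlap, and its highest library was control replicate 1 at 65.3 FPKM. Leaving out vitamin E replicate 1 or control replicate 1 lowered the count of 6 to 3, where 4.28% and 5.47% of all tested genes were higher. Leaving out vitamin E replicate 2 or control replicate 3 lowered it to 2, where 3.90% were higher in each case.

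Of the collagen, elastic fibre and fibronectin genes on which these enzymes act or with which their products assemble, 16 of 22 listed names were tested. All 16 had a log2 difference above 0, where 54.2% of all tested genes did, with a median of 0.46. At an unadjusted p under 0.05, 11 were higher and 0 were lower, where 5.97% and 3.14% of all tested genes were. Of the 16, 0 passed the adjusted test in limma. COL3A1, the chain of type III collagen, averaged 1111 ± 309 FPKM with vitamin E and 635 ± 13.7 FPKM in controls. COL1A1, a chain of type I collagen, averaged 129 ± 14.6 FPKM with vitamin E and 84.9 ± 29.1 FPKM in controls. COL1A2, its partner chain, averaged 417 ± 61.3 FPKM with vitamin E and 274 ± 44.0 FPKM in controls. COL5A2, a chain of type V collagen, had the smallest p of the list (log2 difference 0.56 ± 0.12, SE, adjusted p = 0.280), followed by COL3A1, COL1A2 and COL5A1, the last at 0.49. Leaving out vitamin E replicate 1 lowered the count of 11 to 4, and leaving out control replicate 3 lowered it to 6. Of all tested genes, 4.28% and 3.90% were higher in these settings. These genes were already known to differ in the data when the list was written.

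**Figure D4:**
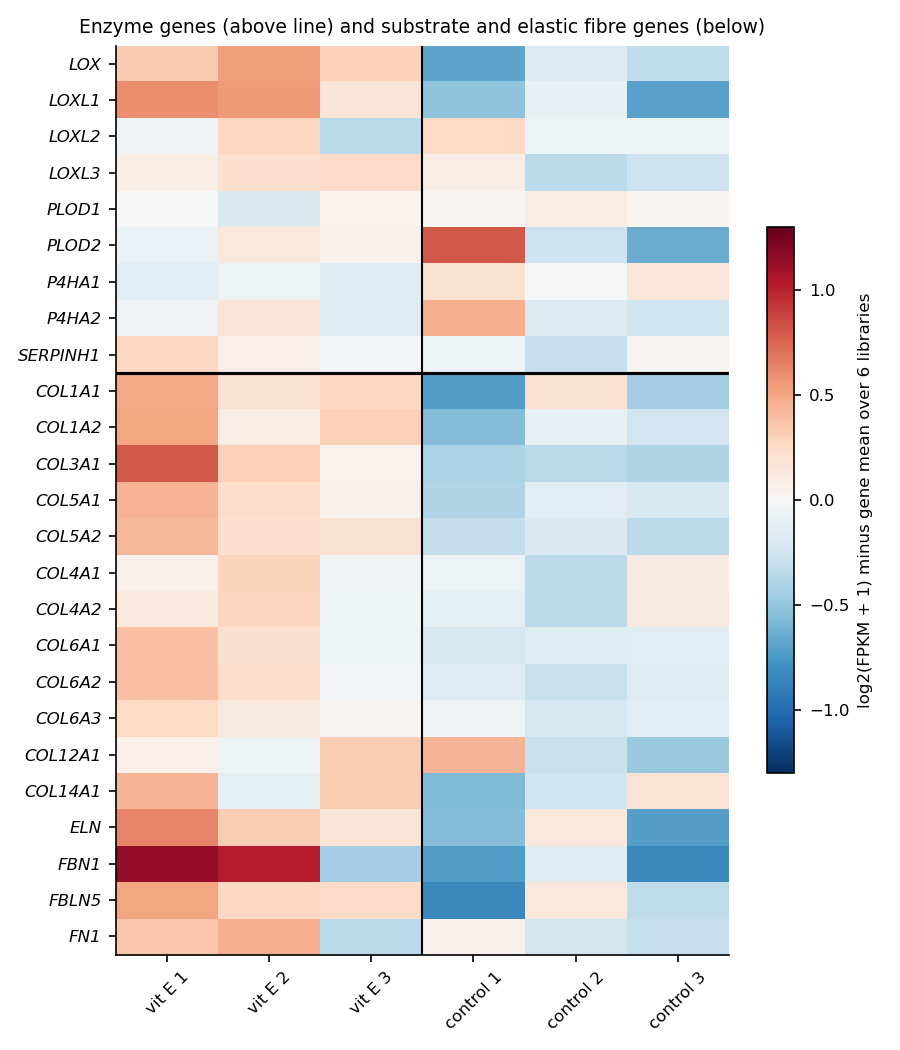
Log2(FPKM + 1) of each gene minus its mean over the 6 libraries, red above and blue below the mean, with enzyme genes above the line and substrate and elastic fibre genes below it. LOX and LOXL1 are red in the 3 vitamin E libraries and blue in the 3 controls, as COL1A2, COL3A1, COL5A1 and COL5A2 are, while PLOD2 and P4HA2 are reddest in control replicate 1, at 0.81 and 0.46.

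The enzyme genes were also set against their main substrates. The summed level of COL1A1, COL1A2 and COL3A1 was 2079, 1501 and 1392 FPKM with vitamin E and 909.9, 1080.1 and 990.4 FPKM in controls. COL3A1 made up most of it, at 1453, 1026 and 854 FPKM with vitamin E and 622, 649 and 634 FPKM in controls. The scale below therefore follows COL3A1 more than the type I chains. For each 100 FPKM of these collagens, LOX had 0.907, 1.45 and 1.31 FPKM with vitamin E and 0.960, 1.19 and 1.15 FPKM in controls, with overlapping groups. LOXL1 overlapped too, at 0.715 ± 0.110 FPKM with vitamin E and 0.593 ± 0.121 FPKM in controls. Per 100 FPKM of collagen, P4HA1 had 0.596, 0.867 and 0.865 FPKM with vitamin E, against 1.75, 1.27 and 1.56 FPKM in controls. PLOD1 had 2.57 ± 0.560 FPKM with vitamin E and 4.47 ± 0.274 FPKM in controls, and SERPINH1 had 6.39 ± 0.695 FPKM with vitamin E and 9.10 ± 1.62 FPKM in controls. On this scale P4HA1, P4HA2, PLOD1, SERPINH1 and LOXL2 were lower in every vitamin E library than in any control library, and LOX, LOXL1, LOXL3 and PLOD2 overlapped. The collagen sum in the denominator was itself higher in every vitamin E library, so a gene of unchanged level falls on this scale. In FPKM itself the groups of P4HA2, PLOD1, SERPINH1 and LOXL2 overlapped. The share of all tested genes that separate on this scale was not computed.

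Markers of fibroblasts, a main source of these enzymes in muscle, are given beside LOX and LOXL1. Of 10 listed markers 9 were tested and 0 passed the adjusted test in limma. At an unadjusted p under 0.05, 6 were higher, where 5.97% of all tested genes were, and in 4 the groups did not overlap, where 8.86% did not. All 9 had a log2 difference above 0, with a median of 0.76. The count of 6 was 4 without vitamin E replicate 1 or control replicate 3, where 4.28% and 3.90% of all tested genes were higher. Their summed level lay between 1012 and 1323 FPKM with vitamin E and between 628 and 867 FPKM in controls, and TCF21, a fibroblast transcription factor, was near 0 in all libraries. THY1, with a log2 difference of 0.073, turned below 0 when vitamin E replicate 3 or control replicate 3 was left out. Per 100 FPKM of these markers LOX had 1.42, 1.96 and 1.80 FPKM with vitamin E and 1.15, 1.48 and 1.81 FPKM in controls, which overlapped. LOXL1 on the same scale had 0.993, 1.13 and 0.927 FPKM with vitamin E and 0.717, 0.886 and 0.741 FPKM in controls, which did not. Vitamin E replicate 3 and control replicate 2 were close here, with 330 and 304 LOXL1 reads. The counting error of LOXL1 was 4.82% to 7.58%, so this separation is within reach of read counting. P4HA1 separated in the other direction, at 1.10 ± 0.141 FPKM with vitamin E and 2.05 ± 0.434 FPKM in controls. The marker sum was itself higher in every vitamin E library, so a gene of unchanged level falls here too. How many of all tested genes separate per marker sum was not computed. The part of the fibroblast markers in the LOX and LOXL1 differences was not tested.

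Other cell type markers gave a mixed picture. The 4 tested adipocyte markers and the untested one summed to between 239.5 and 372 FPKM with vitamin E and between 140.1 and 224 FPKM in controls. Of the 4, 1 was higher at an unadjusted p under 0.05 in limma, and 0 were higher without overlap. The 2 haemoglobin genes found summed to between 75.4 and 96.9 FPKM with vitamin E and between 34.3 and 71.7 FPKM in controls. Both had an unadjusted p under 0.05 in limma and no overlap, with log2 differences of 0.64 and 0.76. Of all tested genes, 5.97% were higher at that p and 8.86% were higher without overlap. The sums of endothelial markers (166 to 219 FPKM with vitamin E, 141 to 194 FPKM in controls), smooth muscle and pericyte markers (134 to 210.0 FPKM with vitamin E, 144 to 281 FPKM in controls) and leukocyte markers (580.0 to 761 FPKM with vitamin E, 427 to 846 FPKM in controls) overlapped. The sum of satellite cell markers overlapped as well (76.9 to 91.6 FPKM with vitamin E, 79.3 to 106 FPKM in controls), but 2 of its 4 tested markers were lower at an unadjusted p under 0.05 and without overlap, where 3.14% and 5.72% of all tested genes were. These were PAX7, a transcription factor of satellite cells (log2 difference -0.51, adjusted p = 0.446 in limma), and MYOG, a transcription factor of muscle differentiation (log2 difference -0.60, adjusted p = 0.361 in limma). The list was split, as MYF5 differed by 0.58 in the other direction and MYOD1 by -0.21, neither at an unadjusted p under 0.05 in limma. Overlap was also seen in the sums of tendon and cartilage markers (5.85 to 14.2 FPKM with vitamin E, 8.27 to 10.2 FPKM in controls), where SCX, ACAN, COL2A1, COL9A1 and MATN1 were all under 1 FPKM. The smooth muscle and satellite cell sums were both highest in control replicate 1, the library with the highest PLOD2, P4HA1 and P4HA2. The part of these markers in the enzyme values was not tested.

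LOX, PLOD2, P4HA1 and P4HA2 are known targets of hypoxia-inducible factors, and LOX and PLOD2 also respond to TGF-beta in cultured mammalian cells. Of 17 tested hypoxia response genes, 4 were higher and 0 were lower at an unadjusted p under 0.05. Of all tested genes, 5.97% and 3.14% were. In limma 0 passed the adjusted test. The median log2 difference was 0.08, and 10 of the 17 lay above 0, where 54.2% of all tested genes did. The 4 genes with an unadjusted p under 0.05 were DDIT4, a brake on mTORC1 (log2 difference 1.37), the glycolytic regulator PFKFB3 (2.19), the mitophagy gene BNIP3 (0.57) and the carbonic anhydrase gene CA9 (1.07). The count of 4 was 7 without control replicate 2, where 8.32% of all tested genes were higher. Of 14 tested genes of TGF-beta signalling and response, 1 was higher and 2 were lower at an unadjusted p under 0.05. The shares of all tested genes were again 5.97% and 3.14%. Of the 14, 0 passed the adjusted test, with a median of -0.10, which was 0.015 without control replicate 1. CTGF, a matricellular protein, averaged 19.3 ± 3.04 FPKM with vitamin E and 31.1 ± 10.1 FPKM in controls, and the signalling repressor gene SKIL averaged 3.07 ± 0.621 FPKM with vitamin E and 4.19 ± 0.164 FPKM in controls, both without overlap. Neither had an unadjusted p under 0.05 without control replicate 1 or vitamin E replicate 1. The fibroblast matrix gene POSTN differed by 0.61 (unadjusted p = 0.0427), and LTBP1, which binds latent TGF-beta, by 0.42 (unadjusted p = 0.0706).

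Genes with a symbol were also ranked by how far their pattern over the 6 libraries lay from that of LOX, as the root-mean-square difference of the centred log2(FPKM + 1) values. Nearest of 9931 genes were the growth factor gene IGF1 (0.08), AMER3 (0.098), the matrix protein gene ADAMTSL3 (0.099), the transcription factor gene KLF9 (0.10) and UGP2, which makes UDP-glucose (0.10). IGF1 had 2.75, 3.04 and 2.87 FPKM with vitamin E and 0.886, 1.68 and 1.62 FPKM in controls, with control replicate 1 lowest, as for LOX. AMER3 averaged 1.66 FPKM with vitamin E and 0.753 FPKM in controls. At such levels the 1 FPKM added before the log shrinks the differences, and the ranking was not repeated with other values. Among the enzyme genes LOXL1 lay nearest to LOX, at 0.21, and PLOD2 farthest, at 0.68. The genes nearest to the mean pattern of the 9 tested enzyme genes were SPTSSA, CANT1, TCEANC2, RAD51D and DKC1, at 0.028 to 0.039. That mean pattern stood at 0.11, 0.19 and 0.012 in the vitamin E libraries and at 0.063, -0.15 and -0.23 in the control libraries, so the groups overlapped through control replicate 1.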

How the data were processed

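The authors deposited 1 table of FPKM values per gene for the 6 libraries. Per the submitters' processing notes, TopHat2 2.0.12 was used. No source used here names the read counter, annotation, genome build or strand setting, so a gene and its overlapping or antisense partner may share reads. Reads and library totals were recovered from the FPKM steps of all genes. Whole reads were found for all 11320 tested genes, and 99.1% of these had an implied length within 0.05 bases of a whole number. A gene whose reads share a common factor gets too few. Within groups, libraries differed by more than sampling noise (chi-square of at least 21.3 per degree of freedom). Each was counted as 1 sample, though such differences cannot show whether they came from separate birds. Counting errors cover the counting of reads only.

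Genes averaging 1 FPKM or more over the libraries were tested on the log2(FPKM + 1) scale by limma 3.58.1 (R 4.3.3), with a trend on intensity, two-sided and with Benjamini-Hochberg adjustment over all of them. The script was tested on simulated reads with known changes and a chosen spread. That does not show which changes could be found in these libraries. Exact permutation of 3 and 3 libraries gives no p below 0.1 and was not used. Sequence records were given the chromosome on which the RefSeq gene table (GRCg7b) lists most of the same symbols. Records with few such symbols were left without one. The genes, lists and tests were chosen with earlier results of these data known. Named were the 10 enzyme genes, up to 4 genes of smallest p per list, P4HB, COL1A1, COL1A2 and COL3A1, and the 5 genes nearest in pattern to LOX and to the mean of the set. CD36, KCTD20, TMEM38B, PAX7, MYOG, MYF5, MYOD1 and THY1 were named after their values were seen. Alternatives were pseudocounts of 0.1 and 0.5, no filter and one of 5 FPKM, 3 other scalings, 3 variance models, blocks by replicate number and by the digit in each description label, voom on recovered reads, and each library left out. Figures were drawn with matplotlib 3.10.9.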

Additional observations from a re-analysis of the deposited data

How the results depend on the processing

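The differences of LOX, LOXL1, LOXL3, P4HA1, PLOD1 and SERPINH1 kept their direction under all 19 alternatives, and no enzyme gene passed the adjusted test under any. Over 13 alternatives that kept all libraries, LOX lay between 0.77 and 0.88 and LOXL1 between 0.86 and 1.00, and P4HA2 turned to 0.063 with library quality weights, which moved the median of the 9 genes to 0.20. With quantile, median-of-ratios or TMM-type scaling, with voom, with no filter or with one of 5 FPKM, 1 enzyme gene (P4HA1) was lower at an unadjusted p under 0.05. Of all tested genes, 2.62% to 3.93% were lower in these settings. With TMM-type or median-of-ratios scaling the groups did not overlap in 2 higher enzyme genes and in 1 lower one. Of all tested genes, 7.85% and 7.77% were higher without overlap in these 2 settings, and 6.78% and 6.86% were lower. Voom and the filter of 5 FPKM each called 2 genes over all, CD36 and KCTD20. Without single libraries the count of lower enzyme genes at that p was 0 to 1, where 2.28% to 5.42% of all tested genes were. The count of higher ones was 2 to 4, where 3.90% to 8.32% of all tested genes were. The median of the set lay between -0.11 and 0.24. The groups, then 3 against 2 libraries, did not overlap in 3 to 5 higher enzyme genes (11.9% to 18.8% of all tested genes) and in 1 to 2 lower ones (8.98% to 12.9%). LOXL2 lay between -0.24 and 0.07, PLOD2 between -0.24 and 0.49, P4HA2 between -0.16 and 0.21, P4HB between -0.11 and 0.29, and the hypoxia median between 0.023 and 0.24. The cause of these shifts was not tested.

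Same-numbered libraries had correlations of -0.129, 0.149 and 0.0122 between their deviations from the group means. The value of 0.149, between the replicates numbered 2, was the largest of all pairs. Vitamin E replicate 1 correlated best with control replicate 3, at 0.145. Values this small from 3 libraries per group cannot settle whether the numbers pair samples. With the replicate number as a block, 2 enzyme genes were higher at an unadjusted p under 0.05, where 5.82% of all tested genes were. With that block 0 genes were called over all. Few libraries per group limit all comparisons, and read depth limits LOXL4.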
